A study of Drosophila melanogaster with 24 samples.

Results

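The Antennapedia complex on chromosome arm 3R holds 6 genes considered here: labial (lab), proboscipedia (pb), Deformed (Dfd), Sex combs reduced (Scr), fushi tarazu (ftz) and Antennapedia (Antp). Open chromatin at them was read from a single table of ATAC-seq peaks, the places where a transposase cuts accessible DNA, counted in brains of adult female Drosophila melanogaster. Members were all peaks that overlapped a gene body or the 5000 bp on either side of it in the Release 6 gene annotation, which gave 24 of the 11145 peaks in the table (0.215%). The complex was chosen by measured values, namely day 10 against day 1 counts at Scr and Antp in these libraries. Age is therefore given below as a description, whereas differences between genotypes, also in their age difference, are tested. Counts of members past the test threshold for age appear only in the last section, to show how they move with the settings.

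Brains came from 4 genotypes aged 10 days or 1 day after eclosion (emergence from the pupa), and each of the 8 groups had 3 libraries. The first is H3.3null, which by its name lacks the replacement histone H3.3. H3.3H3.2 makes the replication-coupled histone H3.2 in place of H3.3, and H3.3S31A carries alanine for a serine of the H3.3 tail. OreR (Oregon-R) is a laboratory wild-type strain and served as the control in all comparisons between mutants and wild type, so these share the OreR libraries. The labels name no stock that carries intact H3.3 in the background of the mutants, and differences between stocks cannot be told apart from the histone change. They do not say whether replicate libraries came from separate sets of animals, so p-values measure the spread between these libraries, part of which may be technical.

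Hox genes encode homeodomain transcription factors that give regions along the head-to-tail axis their identity. In the nervous system lab marks the tritocerebrum, Dfd and Scr act in the segments below the oesophagus, and Antp acts mainly in the thoracic nerve cord. Polycomb group proteins keep Hox genes silent outside their domains, and Trithorax group proteins keep them active within. The gene ftz sits between Scr and Antp and is a pair-rule segmentation gene rather than a classical selector gene.

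Library totals ran from 3021672 to 4890579 counts over all peaks, and the members held 52 to 940 counts per library, with a median of 219. At the members, log2 differences between groups of 3 libraries had a median standard error of 0.128. At the targeted locus, the His3.3B peak at X 9154788 to 9155165 had 9.34 to 18.5 CPM (read counts scaled to a common library size) in H3.3null against 45.7 to 45.9 CPM in OreR at day 10, and 9.66 to 14.4 CPM in H3.3null against 36.6 to 48.4 CPM in OreR at day 1. The other 4 peaks at the H3.3 genes moved differently. The His3.3A peak at 2L 5055623 to 5055921 was higher in H3.3null, by a log2 fold change of 1.22 ± 0.167 at day 10 (edgeR adjusted p = 4.25e-07) and 1.05 ± 0.17 at day 1 (edgeR adjusted p = 8.43e-06). The His3.3B peak at X 9155649 to 9156872 gave 0.111 ± 0.0893 at day 10 and 0.158 ± 0.0892 at day 1 and passed the test at neither age. A further His3.3B peak, X 9152177 to 9152538, fell less, with log2 fold changes of -0.452 ± 0.102 at day 10 (edgeR adjusted p = 0.000784) and -0.354 ± 0.104 at day 1 (edgeR adjusted p = 0.0103), and the His3.3A peak at 2L 5054989 to 5055227 gave -0.346 ± 0.13 at day 10 (edgeR adjusted p = 0.0479) and -0.0391 ± 0.127 at day 1. The labels do not say which bases the H3.3null alleles lack, so these values describe the loci and do not check each library's label. Peaks lay at all 8 neuronal marker genes examined, elav and nSyb among them. Markers of other cells had peaks in or within 5000 bp of 7 of 8 glial genes (alrm had none), 6 of 6 photoreceptor genes, 6 of 7 fat body genes (Fbp1 had none) and 5 of 5 genes of the trunk nerve cord. Of the photoreceptor genes only norpA and gl, and of the fat body genes only Yp1 and apolpp, had a peak over the gene body. Of 7 muscle genes, Mef2 had 10 peaks and wupA 1, and Mhc, Act88F, up, bt and sls had none. Of 4 blood cell genes, Hml and eater had 2 peaks each, and srp and NimC1 had none.

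The members lay unevenly over the complex. Scr and Antp had 7 peaks each, pb had 5, lab had 4, Dfd had 1 and ftz had 0. Of the 24 peaks, 14 overlapped a gene body and 10 lay in flanks. The members had a median width of 357.5 bp against 454 bp for all peaks, and a median level of 160 CPM per kb of peak against 136 CPM per kb. Peaks are numbered below in chromosome order within a gene.

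The annotation used here carries no strand, so the start of a gene could not be told from its other end, and 4 peaks had their centre within 500 bp of either end. These are lab peak 3 (3R 6678502 to 6678785), pb peak 5 (3R 6741520 to 6742346), Dfd peak 1 (3R 6791459 to 6791890) and Scr peak 5 (3R 6849937 to 6850257). Some flank peaks also overlap other genes. Lab peaks 1 and 2 overlap CG1307 and agt, pb peak 1 overlaps Ccp84Aa, and Antp peaks 1 and 7 overlap the long non-coding RNA genes lncRNA:CR45559 and lncRNA:CR45899. Antp peaks 2 and 3 lie inside both Antp and CG46458. Lab peak 4, 4714 bp from the gene, and Scr peak 7, at 4341 bp, were the members nearest to the limit of 5000 bp. Just outside it were a peak over Ccp84Ab, 5234 bp from pb with a mean of 57.8 CPM, and a peak at 3R 6817111 to 6817582, 5538 bp from Scr with a mean of 39.4 CPM.

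**Figure D1:**
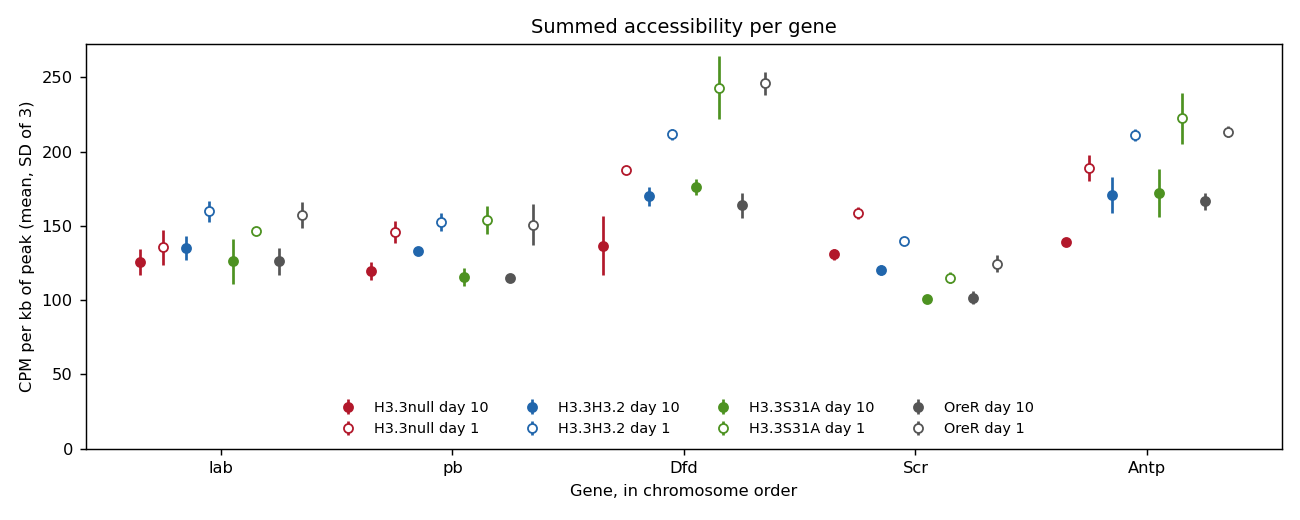
Summed accessibility of the member peaks of each gene in CPM per kb of peak (y axis), by gene in chromosome order (x axis). Points are means of 3 libraries with SD bars, filled for day 10 and open for day 1, coloured by genotype. For Scr the H3.3null mean is the highest of the 4 genotypes at each age, at 131 CPM per kb at day 10 and 159 at day 1 against 102 and 125 in OreR, and for Dfd it is the lowest.

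The question put to the genotypes was whether loss or replacement of H3.3 changed accessibility at these genes. Over both ages, 5 of 24 members differed between H3.3null and OreR at an adjusted p under 0.05 in edgeR's quasi-likelihood test with Benjamini-Hochberg adjustment over all peaks, against 35.6% of all peaks. The members' share was below that of all peaks, so the count says nothing particular about the complex, and what follows concerns single peaks. Of the 5, 3 were higher in H3.3null, all of them within Scr (20.0% of all peaks were higher), and 2 were lower, Dfd peak 1 and Antp peak 7 (15.6% were lower). H3.3H3.2 differed from OreR at 2 members, both higher and both in Scr (17.9% of all peaks called, 10.5% higher). H3.3S31A differed from OreR at 0 of 24 members (16.5% of all peaks called), with 0 members at an unadjusted p under 0.05 and 0 called by DESeq2. In bulk brains, more or fewer cells with an open site and more or less accessibility per cell cannot be told apart.

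**Figure D2:**
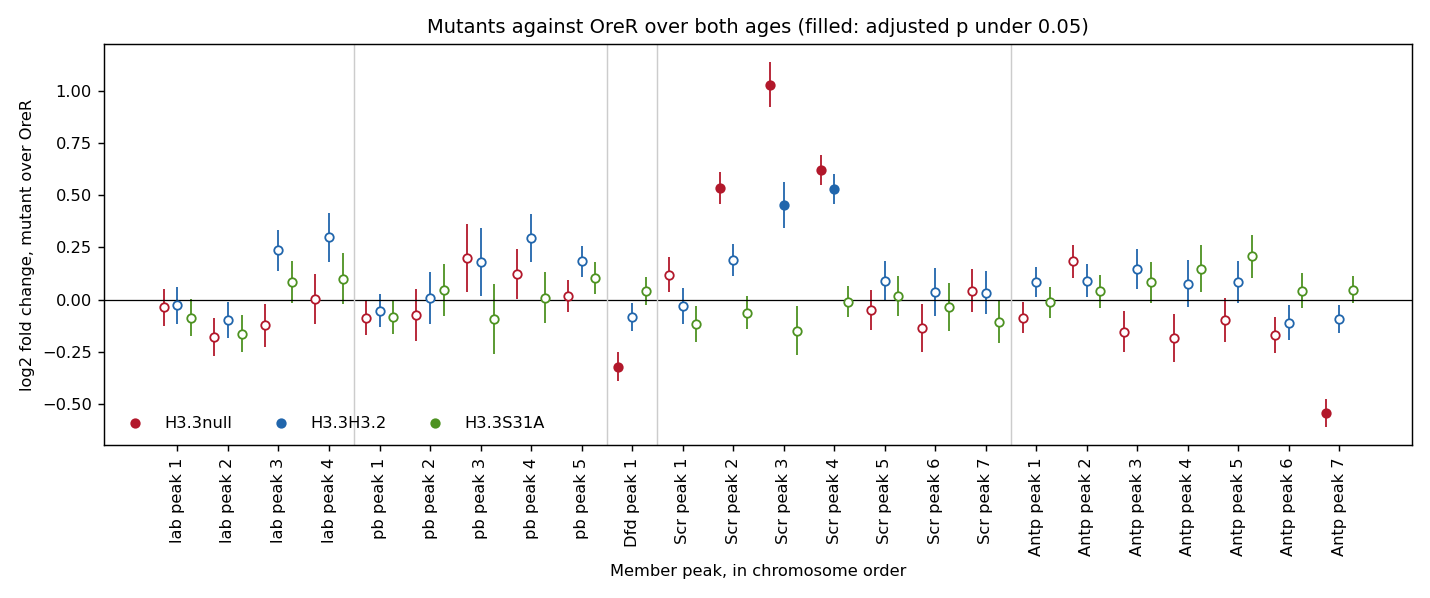
Log2 fold change of each mutant over OreR across both ages (y axis) at the 24 members in chromosome order (x axis), with bars of 1 standard error and filled points at an adjusted p under 0.05. Scr peaks 2, 3 and 4 stand above 0 in H3.3null and Scr peaks 3 and 4 in H3.3H3.2, while Dfd peak 1 and Antp peak 7 stand below 0 in H3.3null, and no H3.3S31A point is filled.

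Scr specifies labial and first thoracic segment identity. Its peak 3, at 3R 6827205 to 6827667 within the gene body, had the largest rise of all members in H3.3null. It gave 52.1, 62.0 and 71.2 CPM in H3.3null and 35.7, 30.9 and 27.9 CPM in OreR at day 10. It gave 59.2, 51.4 and 60.2 CPM in H3.3null and 18.3, 33.2 and 28.5 CPM in OreR at day 1. Every H3.3null library was above every OreR library at both ages, as at 20.4% of all peaks at day 10 and 20.4% at day 1. The log2 fold change was 1.03 ± 0.107 (SE) over both ages (edgeR adjusted p = 5.01e-10).

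In H3.3H3.2 the same peak gave 43.5, 42.5 and 40.6 CPM at day 10 and 37.0, 36.9 and 38.7 CPM at day 1. These values lay between those of H3.3null and OreR and overlapped neither. Wherever H3.3null stood, H3.3H3.2 was above OreR without overlap at 15.5% of all peaks at day 10 and 13.0% at day 1. The log2 fold change of Scr peak 3 in H3.3H3.2 over OreR was 0.453 ± 0.11 over both ages (edgeR adjusted p = 0.00212) and -0.578 ± 0.103 over H3.3null (edgeR adjusted p = 4.07e-05). The H3.3H3.2 difference from OreR at day 1 alone, 0.48 with an adjusted p of 0.0405 in edgeR, lost its call without any of 5 of the 6 libraries, most without OreR replicate 1 of day 1 (0.283, adjusted p = 0.328). H3.3S31A, at 25.6, 34.4 and 36.4 CPM at day 10 and 22.1, 20.4 and 22.1 CPM at day 1, overlapped OreR at both ages, with a log2 fold change of -0.149 ± 0.117.

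Scr peak 2, at 3R 6824786 to 6825689 in the gene body, was raised in H3.3null. It gave 124, 107 and 114 CPM in H3.3null and 91.3, 75.6 and 72.9 CPM in OreR at day 10, and 105, 97.7 and 99.7 CPM in H3.3null and 59.6, 65.4 and 81.4 CPM in OreR at day 1. The groups did not overlap at either age, and the log2 fold change was 0.533 ± 0.0771 (edgeR adjusted p = 5.17e-07). In H3.3H3.2 it was 0.191 ± 0.0777 and did not pass the test (adjusted p = 0.0878), and the difference of H3.3H3.2 from H3.3null did, at -0.342 ± 0.0758 (edgeR adjusted p = 0.000808).

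Scr peaks 2 and 3 were among the weakest peaks of the table per length, at the 4.87th and 1.3rd percentiles of CPM per kb. Among the 557 peaks at or under the 5th percentile, 40.6% were higher and 36.6% lower in H3.3null over both ages, so weak peaks were called often and in both directions. The weak neighbour just outside the limit, at 3R 6817111 to 6817582, showed the same order of genotypes, with log2 fold changes over OreR of 1.16 ± 0.119 in H3.3null (edgeR adjusted p = 5.07e-10), 0.425 in H3.3H3.2 (adjusted p = 0.0105) and 0.0814 in H3.3S31A (adjusted p = 0.792).

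Scr peak 4, at 3R 6848483 to 6849007 and with its centre 1236 bp from the gene's high-coordinate end, was higher in both H3.3null and H3.3H3.2. At day 10 it gave 66.6, 58.8 and 56.5 CPM in H3.3null, 49.7, 54.7 and 58.6 CPM in H3.3H3.2, 33.5, 42.5 and 38.7 CPM in H3.3S31A and 37.7, 42.0 and 38.2 CPM in OreR. At day 1 it gave 104, 104 and 114 CPM in H3.3null, 104, 105 and 105 CPM in H3.3H3.2, 71.0, 71.1 and 69.1 CPM in H3.3S31A and 72.6, 66.9 and 69.4 CPM in OreR. At each age all libraries of H3.3null and of H3.3H3.2 exceeded all of H3.3S31A and of OreR.

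The log2 fold change of Scr peak 4 over OreR was 0.622 ± 0.0719 in H3.3null (edgeR adjusted p = 5.23e-09) and 0.528 ± 0.0717 in H3.3H3.2 (edgeR adjusted p = 2.52e-07), and in H3.3S31A it was -0.0105 ± 0.0748. The difference of H3.3H3.2 minus H3.3null did not pass the test here, at -0.0934 ± 0.0692 (adjusted p = 0.388). H3.3S31A lay below H3.3null by a log2 difference of -0.632 ± 0.0723 (edgeR adjusted p = 6.82e-09) and below H3.3H3.2 by -0.539 ± 0.0721 (edgeR adjusted p = 8.06e-06). The calls over both ages at Scr peaks 2, 3 and 4 in H3.3null, and at Scr peaks 3 and 4 in H3.3H3.2, held with each library left out in turn.

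Summed accessibility of some other cell markers differed in the same libraries. The 23 peaks of the glial list summed to 2004 to 2095 CPM in H3.3null against 1915 to 1969 CPM in OreR at day 10, and to 2029 to 2109 CPM in H3.3null against 1850 to 1922 CPM in OreR at day 1. The 13 peaks of the fat body list summed to 750.1 to 829.9 CPM in H3.3null against 718.7 to 753.0 CPM in OreR at day 10, and to 795.2 to 810.4 CPM in H3.3null against 707.0 to 741.7 CPM in OreR at day 1. Both sums were higher in H3.3null without overlap at day 1, and the glial sum also at day 10. The single peaks did not all move this way. Of the 13 fat body peaks, 8 were higher and 5 lower in H3.3null at day 1, and 6 higher and 7 lower at day 10, tested or not. Of the 23 glial peaks, 17 were higher and 6 lower at day 1, and 15 higher and 8 lower at day 10. The sum of the muscle list was lower in H3.3null at day 10, with 950.3 to 1010 CPM against 1054 to 1137 CPM in OreR, and overlapped at day 1. Within this list Mef2 had 10 peaks, wupA had 1 and the other genes had none, so the sum is mainly that of the Mef2 locus. Sums of the neuron, photoreceptor and blood cell lists overlapped OreR at both ages. In H3.3H3.2 the glial sum also lay above OreR without overlap, at 1992 to 2036 CPM at day 10 and 1942 to 2097 CPM at day 1. The H3.3H3.2 photoreceptor sum lay below OreR at day 1 (852.4 to 865.5 against 919.2 to 995.2 CPM), and its muscle sum at day 10 (965.0 to 1007 CPM). In H3.3S31A the photoreceptor sum lay below OreR at day 10 (749.8 to 754.7 against 859.6 to 947.8 CPM) and day 1 (761.9 to 804.2 CPM). The H3.3S31A neuron sum lay above OreR at day 1 (6755 to 7061 against 6489 to 6751 CPM). Other sums of these lists overlapped OreR in both mutants. Fbp1 and alrm had no peak, and of the fat body list only Yp1 and apolpp had a peak over the gene body. The part of these cells in the Scr differences was not tested.

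The other Scr members differed less. Scr peak 1, in the flank beyond the low-coordinate end, was called in 1 comparison, at -0.237 ± 0.0853 for H3.3S31A minus H3.3null (edgeR adjusted p = 0.0335), and it lost that call without any of 9 of the libraries, with adjusted p of up to 0.0816. Scr peak 5 at the gene's end and Scr peaks 6 and 7 beyond it were called in no comparison of genotypes. At Scr peak 5 the log2 fold change over OreR was -0.0502 ± 0.097 in H3.3null, 0.0185 ± 0.0966 in H3.3S31A and 0.0903 ± 0.095 in H3.3H3.2.

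Antp, which gives the second thoracic segment its identity, had the member with the highest level. Antp peak 7, at 3R 7000574 to 7001251 in the flank and over lncRNA:CR45899, averaged 170 CPM over the 24 libraries and stood at the 97.0th percentile of all peaks per length. At day 10 it gave 98.0, 109 and 106 CPM in H3.3null and 178, 164 and 170 CPM in OreR. At day 1 it gave 147, 160 and 156 CPM in H3.3null and 214, 201 and 188 CPM in OreR. All H3.3null libraries were below all OreR libraries of the same age, as at 16.0% of all peaks at day 10 and 16.9% at day 1, and the log2 fold change was -0.543 ± 0.0668 over both ages (edgeR adjusted p = 1.92e-08).

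H3.3H3.2 gave 145, 158 and 175 CPM at Antp peak 7 at day 10 and 198, 187 and 185 CPM at day 1, which overlapped OreR (log2 fold change -0.0923 ± 0.0653, adjusted p = 0.406). H3.3S31A gave 212, 167 and 174 CPM at day 10 and 189, 214 and 194 CPM at day 1 (0.0478 ± 0.0653, adjusted p = 0.758). Both stood above H3.3null, by 0.451 ± 0.0667 in H3.3H3.2 (edgeR adjusted p = 1.88e-06) and by 0.591 ± 0.0668 in H3.3S31A (edgeR adjusted p = 5.24e-09). H3.3null was thus lower than each of the other 3 genotypes, each by direct test, and the call against OreR held with each library left out.

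Antp peaks 3, 4 and 5 were each called in a single comparison between mutants. Antp peak 3 was higher in H3.3H3.2 than in H3.3null by 0.301 ± 0.0976 (edgeR adjusted p = 0.024). Antp peaks 4 and 5 were higher in H3.3S31A than in H3.3null by 0.331 ± 0.113 (edgeR adjusted p = 0.0263) and 0.305 ± 0.104 (edgeR adjusted p = 0.0246). Each of these calls was lost without some of the libraries, with adjusted p of up to 0.109 for peak 3 and 0.0911 for peaks 4 and 5. Peaks at Ubx, abd-A, Abd-B, tsh and tio, the trunk nerve cord list, summed to 1202 to 1312 CPM in H3.3null against 1385 to 1466 CPM in OreR at day 10. At day 1 they summed to 1476 to 1596 CPM in H3.3null against 1589 to 1657 CPM in OreR, which overlapped. Without tsh and tio the sums overlapped at day 10 too, at 781.6 to 871.9 CPM in H3.3null against 869.4 to 911.8 CPM in OreR. Of the 18 trunk nerve cord peaks 7 were called in H3.3null over both ages (35.6% of all peaks), 1 higher (20.0%) and 6 lower (15.6%), and their part in the Antp differences was not tested.

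Dfd, which directs maxillary and mandibular identity, had its 1 peak at an end of the gene. Dfd peak 1 gave 50.3, 59.1 and 67.5 CPM in H3.3null and 68.6, 74.9 and 68.6 CPM in OreR at day 10. It gave 81.7, 80.2 and 80.7 CPM in H3.3null and 109, 106 and 103 CPM in OreR at day 1. H3.3null was below OreR at both ages without overlap. The log2 fold change was -0.321 ± 0.0686 over both ages (edgeR adjusted p = 0.000254), -0.391 ± 0.0939 at day 1 (edgeR adjusted p = 0.00161) and -0.251 ± 0.1 at day 10, where it missed the threshold (adjusted p = 0.0629).

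In H3.3H3.2 Dfd peak 1 gave 70.1, 74.6 and 75.1 CPM at day 10 and 92.9, 90.9 and 89.9 CPM at day 1, and in H3.3S31A 74.2, 75.3 and 78.4 CPM at day 10 and 104, 114 and 96.1 CPM at day 1. Neither difference from OreR passed the test, with log2 fold changes of -0.0828 ± 0.0671 in H3.3H3.2 (adjusted p = 0.485) and 0.0416 ± 0.0673 in H3.3S31A (adjusted p = 0.801) over both ages. Both were above H3.3null, H3.3H3.2 by 0.238 ± 0.0684 (edgeR adjusted p = 0.01) and H3.3S31A by 0.363 ± 0.0686 (edgeR adjusted p = 7.2e-05). The H3.3null call over both ages held with each library left out in turn.

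Peaks of lab, needed for the tritocerebrum, and of pb, which acts in the mouthparts, were called over both ages in no comparison with OreR. Across these 9 peaks the log2 fold changes over OreR ran from -0.179 to 0.201 in H3.3null, from -0.0974 to 0.298 in H3.3H3.2 and from -0.163 to 0.105 in H3.3S31A. Calls at single ages were few. At day 10 the members called against OreR were 4 in H3.3null (24.5% of all peaks), 0 in H3.3S31A (10.2%) and 3 in H3.3H3.2 (10.7%). At day 1 they were 6 in H3.3null (24.7%), 0 in H3.3S31A (10.5%) and 2 in H3.3H3.2 (11.1%). With any 1 of the 6 libraries compared left out, the H3.3H3.2 count at day 10 was 1 to 2, and it was 1 without OreR replicate 1 of day 10. For H3.3S31A, 0 members at day 10 and 1 at day 1 had an unadjusted p under 0.05, and DESeq2 called 0 at either age.

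Lab peak 3, at an end of lab, gave 29.0, 40.8 and 41.3 CPM in H3.3null, 46.9, 47.3 and 47.2 CPM in H3.3H3.2, 44.5, 43.4 and 25.4 CPM in H3.3S31A and 28.2, 35.4 and 35.9 CPM in OreR at day 10. At day 1 it gave 43.7, 49.2 and 46.3 CPM in H3.3null, 60.1, 59.4 and 62.0 CPM in H3.3H3.2, 59.7, 63.8 and 57.4 CPM in H3.3S31A and 63.9, 58.1 and 63.9 CPM in OreR. H3.3null was thus below the other genotypes at day 1, and H3.3H3.2 above OreR at day 10. The first difference was -0.415 ± 0.138 against OreR (edgeR adjusted p = 0.0232), and it lost its call without any of 4 libraries, with adjusted p from 0.0549 to 0.0916. The second was 0.507 ± 0.145 (edgeR adjusted p = 0.0162), and without OreR replicate 1 of day 10 it was 0.402 (adjusted p = 0.141). Over both ages H3.3H3.2 was above H3.3null by 0.36 ± 0.0995 (edgeR adjusted p = 0.00735).

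At pb peak 5, the pb member with the highest level, H3.3H3.2 gave 132, 130 and 125 CPM and OreR 105, 96.5 and 105 CPM at day 10. At day 1 H3.3H3.2 gave 172, 175 and 156 CPM and OreR 198, 146 and 150 CPM. The groups separated at day 10 and overlapped at day 1. The day 10 difference of 0.335 ± 0.109 (edgeR adjusted p = 0.0393) lost its call without any of the 6 libraries compared, with adjusted p from 0.0656 to 0.151.

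Direct comparisons of the mutants over both ages called 6 members for H3.3H3.2 minus H3.3null (20.3% of all peaks) and 8 for H3.3S31A minus H3.3null (28.5%), and the second count was 5 without H3.3null replicate 1 of day 1. For H3.3S31A minus H3.3H3.2 they called 2, Scr peaks 3 and 4, against 1.81% of all peaks. Both were lower in H3.3S31A, by a log2 difference of -0.601 ± 0.112 at Scr peak 3 (edgeR adjusted p = 0.00112) and by the value given above at Scr peak 4. In all, 13 of the 24 members were called in no comparison of genotypes, 3 of them at lab, 4 at pb, 3 at Scr and 3 at Antp. Their log2 fold changes over OreR lay between -0.179 and 0.201 in H3.3null, between -0.11 and 0.298 in H3.3H3.2 and between -0.163 and 0.1 in H3.3S31A. The share of all peaks called in no comparison was not counted, so nothing about the complex is read from the 13.

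**Figure D3:**
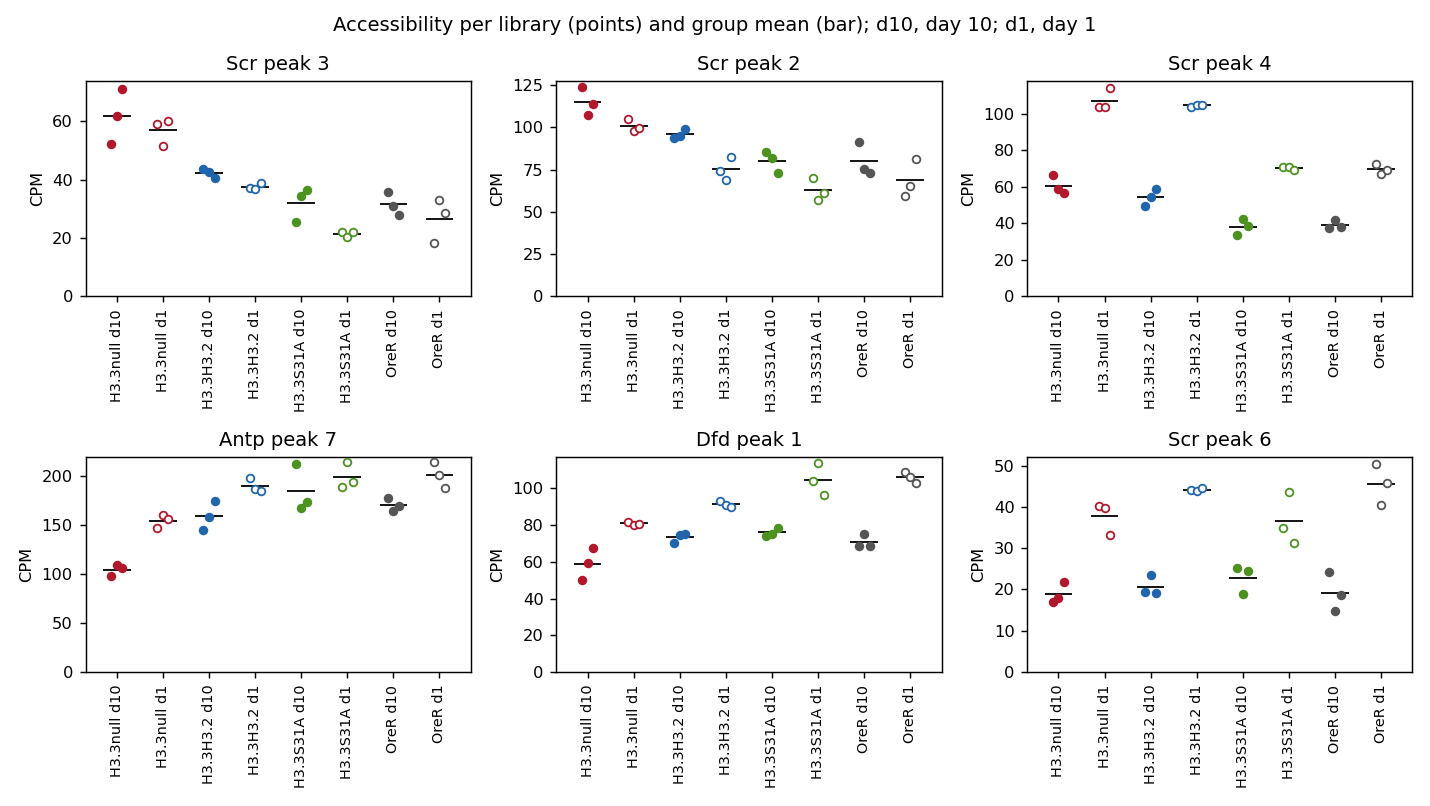
CPM of each library (points) and group means (bars) at 6 members, by genotype and age (x axis, d10 for day 10 and d1 for day 1). Scr peaks 3, 2 and 4 are higher in H3.3null than in OreR at both ages and Antp peak 7 and Dfd peak 1 are lower, and Scr peak 6 is lower at day 10 than at day 1 in all 4 genotypes, with 14.7 to 25.1 CPM against 31.3 to 50.4 CPM.

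The second axis of the design was age. Accessibility at the complex was lower at day 10 than at day 1 in all 4 genotypes. The 24 members summed to 1290 ± 47.5 CPM at day 10 and 1617 ± 45.0 CPM at day 1 in H3.3null (SD, n = 3 each), and to 1411 ± 55.9 CPM at day 10 and 1683 ± 19.1 CPM at day 1 in H3.3H3.2. They summed to 1313 ± 78.1 CPM at day 10 and 1646 ± 67.8 CPM at day 1 in H3.3S31A, and to 1290 ± 2.17 CPM at day 10 and 1653 ± 38.6 CPM at day 1 in OreR. Summed per gene and per kb, lab, pb, Dfd, Scr and Antp each had a lower mean at day 10 in every genotype. At 17 of the 24 members all 4 genotypes had a lower estimate at day 10 (14.2% of all peaks), and at 2 all 4 had a higher one (13.5%). Age values chose the complex, so nothing is read from these counts.

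The median over members of the mean of the 4 age differences was -0.298 on the log2 scale, against 0.00159 over all peaks, and it too is given as a description.

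**Figure D4:**
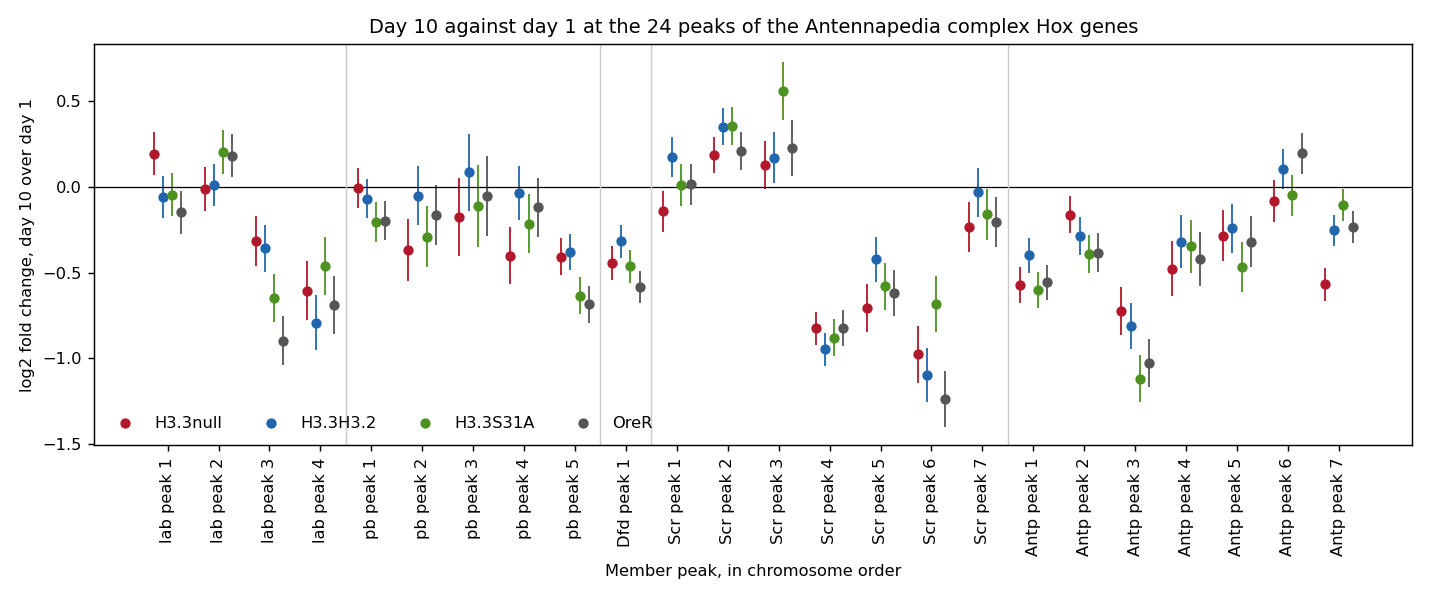
Log2 fold change of day 10 over day 1 (y axis) at the 24 members in chromosome order (x axis), with bars of 1 standard error, coloured by genotype. Scr peaks 4 and 6 and Antp peak 3 lie between -1.24 and -0.684 in all 4 genotypes, and Scr peaks 2 and 3 lie above 0 in all 4.

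Scr held both extremes. Scr peak 6, at 3R 6853137 to 6853316 in the flank beyond the high-coordinate end, ranged from 14.7 to 25.1 CPM (median 19.4) over the 12 libraries of day 10 and from 31.3 to 50.4 CPM (median 42.0) over the 12 libraries of day 1. Its age difference was -0.978 ± 0.166 in H3.3null, -0.684 ± 0.163 in H3.3S31A, -1.1 ± 0.158 in H3.3H3.2 and -1.24 ± 0.162 in OreR (log2, SE). Their mean was -1.0.

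Scr peak 4, which was higher in H3.3null and H3.3H3.2, had an age difference in all genotypes, of -0.826 ± 0.0982 in H3.3null, -0.88 ± 0.106 in H3.3S31A, -0.948 ± 0.0975 in H3.3H3.2 and -0.825 ± 0.105 in OreR. Its libraries ranged from 33.5 to 66.6 CPM at day 10 and from 66.9 to 114 CPM at day 1, without overlap. Scr peak 5, at the gene's end, ranged from 27.7 to 49.2 CPM at day 10 and from 54.1 to 67.1 CPM at day 1, also without overlap, with a mean difference of -0.583. By contrast, Scr peaks 2 and 3 in the other end of the gene body had mean differences of 0.276 and 0.271, with ages that overlapped.

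In Antp the member with the lowest mean age difference was peak 3, at 3R 6930448 to 6930777 in the gene body. It ranged from 28.1 to 42.1 CPM (median 30.6) at day 10 and from 36.4 to 70.1 CPM (median 61.0) at day 1, and within each genotype the ages did not overlap. The difference was -0.725 ± 0.142 in H3.3null, -1.12 ± 0.138 in H3.3S31A, -0.81 ± 0.134 in H3.3H3.2 and -1.03 ± 0.139 in OreR. Antp peak 1, the flank peak over lncRNA:CR45559, ranged from 94.0 to 134 CPM at day 10 and from 136 to 179 CPM at day 1. The mean differences of the other Antp members ran from -0.391 at peak 4 to 0.0431 at peak 6.

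Among the head genes, the members at a gene end stood low at day 10. Lab peak 3 ranged from 25.4 to 47.3 CPM at day 10 and from 43.7 to 63.9 CPM at day 1, with a mean difference of -0.555. Pb peak 5 ranged from 96.5 to 132 CPM at day 10 and from 142 to 208 CPM at day 1, with a mean difference of -0.527. Dfd peak 1 ranged from 50.3 to 78.4 CPM at day 10 and from 80.2 to 114 CPM at day 1, with a mean difference of -0.453. The ages did not overlap at pb peak 5 and Dfd peak 1.

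Lab peak 4, in the flank, ranged from 13.0 to 25.7 CPM at day 10 and from 24.8 to 39.5 CPM at day 1, with a mean difference of -0.638. The remaining members of lab and pb had mean differences from -0.219 at pb peak 2 to 0.0962 at lab peak 2, with overlapping ages. Lab peaks 1 and 2 and pb peak 1, which overlap other genes, were among these.

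Whether the age difference changed with genotype was tested as an interaction. This test uses the age values that chose the complex and may not be free of that choice. Of the 24 members 0 were called for any mutant (0% of all peaks each), with an unadjusted p under 0.05 at 2 members for H3.3null and at 1 for each of the other mutants, and 0 called by DESeq2. The smallest adjusted p in edgeR's quasi-likelihood test was 0.404, at lab peak 3, whose age difference was smaller in size in H3.3null than in OreR by 0.583 ± 0.204 on the log2 scale.

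**Figure D5:**
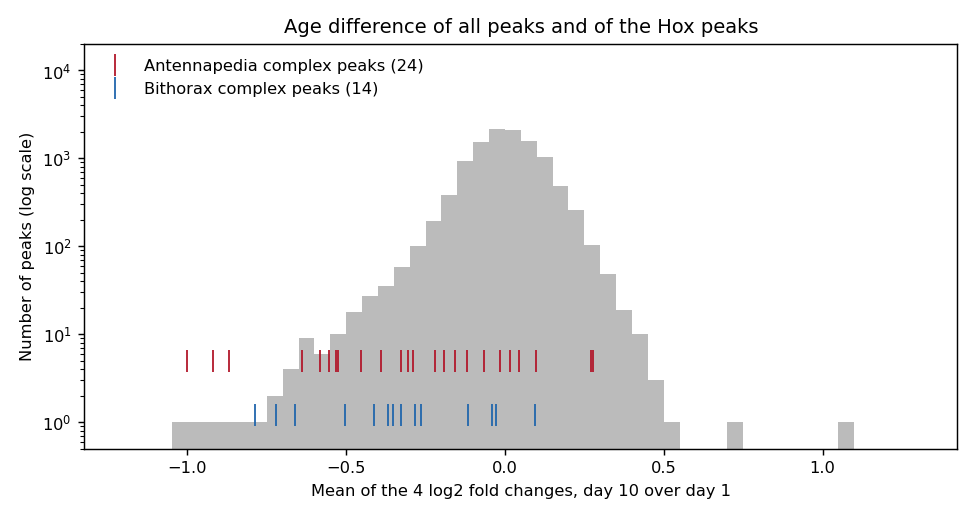
Number of peaks (y axis, log scale) by the mean of their 4 log2 fold changes of day 10 over day 1 (x axis), for all 11145 peaks in grey, with the 24 Antennapedia complex members and 14 Bithorax complex peaks as ticks. Most ticks of both complexes lie left of the centre of the grey distribution, with medians of -0.298 and -0.341.

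The Bithorax complex, whose genes Ubx, abd-A and Abd-B pattern posterior thorax and abdomen, was described in the same way. Of its 14 peaks 10 were lower at day 10 in all 4 genotypes (14.2% of all peaks), and the median of the mean age difference was -0.341. Summed over the 18 trunk nerve cord peaks, which include these, accessibility was 1202 to 1312 CPM at day 10 and 1476 to 1596 CPM at day 1 in H3.3null, and 1393 to 1465 CPM at day 10 and 1655 to 1699 CPM at day 1 in H3.3H3.2. It was 1384 to 1511 CPM at day 10 and 1623 to 1708 CPM at day 1 in H3.3S31A, and 1385 to 1466 CPM at day 10 and 1589 to 1657 CPM at day 1 in OreR. Day 10 lay below day 1 in each genotype without overlap. The part of nerve cord tissue in the values at the complex was not tested.

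The peak whose log2 CPM over the 24 libraries was most like the summed members, among 11111 peaks more than 50000 bp from the complex, lay in Abd-B at 3R 16948592 to 16948867 (Pearson r = 0.967). Peaks in sens-2 (0.935), Sox102F (0.935), pros (0.925) and lncRNA:CR45267 (0.921) followed. The libraries share the same 8 groups and CPM are scaled for depth, so a correlation reflects group differences, those of age included. The Abd-B peak had a mean age difference of -0.787. Age values chose the complex, so the likeness is a description only. The gene pros encodes a homeodomain factor of neural precursors and neurons.

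Partners and regulators of the Hox proteins were listed separately. Of 31 peaks at cofactors and head partners, such as hth and exd, which encode homeodomain partners of Hox proteins, 11 were called in H3.3null over both ages, a share close to the 35.6% of all peaks. Of these, 2 were higher (20.0% of all peaks) and 9 lower (15.6%), and the median log2 fold change of the list was -0.117 against -0.00773 for all peaks. In H3.3H3.2 3 were higher and 1 lower (17.9% of all peaks called), and in H3.3S31A 0 were higher and 1 lower (16.5% called). A peak in hth at 3R 10535778 to 10536072 fell by 0.422 ± 0.0873 on the log2 scale in H3.3null (edgeR adjusted p = 0.000167). In cnc, a factor of head segments, the peak at 3R 23226449 to 23227086 rose by 0.488 ± 0.0721 (edgeR adjusted p = 7.6e-07) and the peak at 3R 23201059 to 23201414 changed by -0.445 ± 0.081 (edgeR adjusted p = 2.7e-05).

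Of 40 peaks at Polycomb group genes 11 were higher and 7 lower in H3.3null, 4 higher and 1 lower in H3.3S31A, and in H3.3H3.2 2 higher and 1 lower. The peak shared by ph-p and ph-d, which encode subunits of a Polycomb repressive complex, at X 2125429 to 2125950, rose by 0.848 ± 0.0712 in H3.3null (edgeR adjusted p = 2.54e-12) and by 0.494 ± 0.0716 in H3.3H3.2 (edgeR adjusted p = 9.82e-07). Of 78 peaks at Trithorax group genes 13 were higher and 8 lower in H3.3null, 1 higher and 4 lower in H3.3S31A, and in H3.3H3.2 5 higher and 2 lower. Medians over these lists in H3.3null were 0.0517 for Polycomb and 0.0233 for Trithorax. The lists were called in H3.3null at shares of 18 of 40 and 21 of 78 peaks, against 35.6% of all peaks. In H3.3H3.2 the shares were 3 of 40 and 7 of 78, against 17.9%, and in H3.3S31A 5 of 40 and 5 of 78, against 16.5%. Nothing particular to the lists is read from this.

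The non-Hox genes inside the complex, zen, zen2, bcd and Ama, had 3 peaks within 5000 bp, none of them a member. The peak in bcd, the maternal anterior determinant of the embryo, at 3R 6757614 to 6757995, was lower than OreR in all 3 mutants, by log2 fold changes of -0.412 ± 0.116 in H3.3null (edgeR adjusted p = 0.00451), -0.412 ± 0.114 in H3.3H3.2 (edgeR adjusted p = 0.00732) and -0.518 ± 0.117 in H3.3S31A (edgeR adjusted p = 0.00095). These comparisons, over both ages, share the OreR libraries, and the bcd peak was weak, at the 2.51st percentile of CPM per kb. The peak over lncRNA:CR44930, at 3R 6766290 to 6766633, went the other way. It gave 0.217 ± 0.0995 in H3.3null (adjusted p = 0.0868), 0.276 ± 0.0984 in H3.3H3.2 (edgeR adjusted p = 0.0459) and 0.316 ± 0.0991 in H3.3S31A (edgeR adjusted p = 0.0217). The remaining peak, at 3R 6759588 to 6759785, was called over both ages in no mutant. No member of the Hox genes was called against OreR in all 3 mutants.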

How the data were processed

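The authors deposited 1 table of read counts, with the same peaks for all 24 samples. The submitters' processing notes name dm6, STAR 2.7.7a, SAMtools 1.9, bedtools 2.26, deepTools 3.2.0, featureCounts (Subread 2.0.1) and DESeq2 1.34.0 without their roles. The peak caller, duplicate handling and transposase shift are not given in the sources used here, and the labels' extraction text describes RNA libraries from 8 brains, which contradicts their genomic DNA. Any tissue or duplicate bias of the authors' counting stays in the counts.

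The counts were fitted with edgeR 4.0.16 and limma 3.58.1 in R 4.3.3, with TMM scaling, 1 coefficient per group over all 24 libraries (16 residual degrees of freedom), and glmQLFit and glmQLFTest in robust mode. P-values were adjusted by Benjamini-Hochberg over 11145 peaks in each of 19 contrasts and called under 0.05. The low-count filter removed 0 peaks. A contrast over both ages is the mean of the day 10 and day 1 differences. CPM use TMM-scaled totals, widths are end minus start, and coordinates stand as the file gives them. The fit was tested on simulated data. Counts carry no molecular identifiers.

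Members and gene lists were chosen with earlier results of these data known. Named members are those called between genotypes, the 8 with the largest mean age difference, and per gene the peak with the highest CPM and those at either end of the gene, in place of the start. The name calypso of the Polycomb list was not matched in the annotation. Alternatives were DESeq2 1.42.0, RLE factors, stricter and no filtering, a fit of the compared groups only, a replicate block, gene bodies only or 10000 bp flanks, and each library left out. Replicate numbers were not used to pair the samples in the main fit.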

Additional observations from a re-analysis of the deposited data

How the results depend on the processing

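No result reversed. Of the 38 calls between genotypes named at single members, DESeq2, RLE factors, the stricter filter, no filter and the replicate block changed 0, and a fit of the compared groups only lost 1. That fit called 1 member for H3.3H3.2 minus OreR at day 1, 5 at day 10 and 4 over both ages. Flanks of 10000 bp gave 5 members for H3.3H3.2 minus OreR at day 10 and 5 over both ages. Flanks change which peaks are members, and the cause of the other changes was not tested. No share of all peaks was set beside these counts of members, so they show only how the counts move with the settings. Over all peaks, the interaction of H3.3null had 7 calls in DESeq2, 3 with the block and 4 with the compared groups, against 0.

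With 1 library left out, members called numbered 5 to 7 for H3.3null minus OreR at day 1, 4 to 6 at day 10 and 5 to 6 over both ages, 1 to 2, 1 to 2 and 2 to 4 for H3.3H3.2 minus OreR (4 without OreR day 1 replicate 1), and 0 to 1, 0 to 0 and 0 to 0 for H3.3S31A minus OreR. They numbered 5 to 8 for H3.3H3.2 minus H3.3null, 5 to 9 for H3.3S31A minus H3.3null and 2 to 2 for H3.3S31A minus H3.3H3.2. They numbered 0 to 0 for the interactions.

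For day 10 minus day 1, the values that chose the complex, the number of members past the same threshold shows only how it moves with the settings and supports nothing. With all libraries it was 7 in H3.3null, 4 in H3.3H3.2, 8 in H3.3S31A and 9 in OreR. Over all 11145 peaks the numbers were 103, 68, 110 and 213. With 1 library left out the members numbered 5 to 7 in H3.3null, 3 to 4 in H3.3H3.2, 4 to 9 in H3.3S31A and 7 to 9 in OreR. With gene bodies only H3.3null had 4 and H3.3H3.2 had 2, and with the compared groups only H3.3S31A had 4.

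The replicate block counted 6, 4 and 5 members for H3.3null minus OreR at day 1, at day 10 and over both ages. Deviations of same-numbered libraries had a median r of -0.00748 over 84 pairs, with 24 above 0.1. Differently numbered libraries had a median r of -0.0024 over 168 pairs, with 35 above 0.1. Of 168 comparisons, each with 3 libraries to choose from, 60 were best with their own number. Both medians were near 0, and the numbers were not used as pairs in the main fit. The median SE of 0.128 limits small differences.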
